A study of Mus musculus with 6 samples.

Results

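The genes described here are those of C-type natriuretic peptide (CNP) and cGMP kinase signalling, taken by gene symbol from a list of 8. They are the peptide genes Nppc, Nppb and Ostn, the receptor genes Npr1, Npr2 and Npr3, and the kinase genes Prkg1 and Prkg2. All 8 were found among the 24346 genes listed in each library. RNA was sequenced from cartilage of the spheno-occipital synchondrosis, which lengthens the base of the mouse skull, with layers cut from frozen sections by laser microdissection. All 6 libraries come from mice labelled Gli1CreERT2; Tomato flox, in which tamoxifen at postnatal day 3 activates a Cre recombinase driven by Gli1 and so switches on a Tomato reporter. How old the mice were when the tissue was taken is not stated in the labels, and no library comes from untreated mice. The groups are FP and RR, codes in the library titles, with 3 libraries each under the same numbers, 11, 14 and 16. The series compares flat with round chondrocytes, but no label spells out the codes.

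CNP, the product of Nppc, binds the receptor NPR2 on chondrocytes, a guanylyl cyclase that makes cGMP. Cyclic GMP activates 2 kinases, type I (Prkg1) and type II (Prkg2), and in growth plates the type II kinase carries much of the CNP signal that promotes cartilage growth and opposes FGFR3 signalling through the MAP kinases. NPR3 lacks a cyclase and removes natriuretic peptides from the tissue, and osteocrin (Ostn) occupies NPR3 and so spares CNP. NPR1 is the receptor of the heart peptides, one of which is the product of Nppb.

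The kinases were the members called different between the layers. Prkg2 was 14-fold and Prkg1 6.10-fold higher in FP than in RR by mean FPKM (fragments scaled by transcript length and by the size of the library). The receptor Npr2 was at similar levels in both, with a mean of 23.6 ± 4.45 FPKM for FP against 26.7 ± 4.82 for RR (SD, n = 3 each). The peptide genes were near the limit of detection in both layers. Differences were tested with limma on log2(FPKM + 1), FP minus RR, two-sided, over the 14789 genes that averaged 1 FPKM or more. A gene was called when its Benjamini-Hochberg adjusted p was under 0.05. Only 4 of the 8 members, Prkg1, Prkg2, Npr2 and Npr3, passed this filter on low values. Of these 4, Prkg1 and Prkg2 were called, both higher in FP. Over all tested genes 0.967% were called and 0.554% were called higher in FP. The members and the lists below were chosen with earlier results of these data known, so their counts are no independent test. The labels do not say that each library is a different animal, so the p-values reflect only how far these samples spread, which may be technical. In captured tissue, fewer cells of a type and less RNA per cell cannot be told apart.

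**Figure D1:**
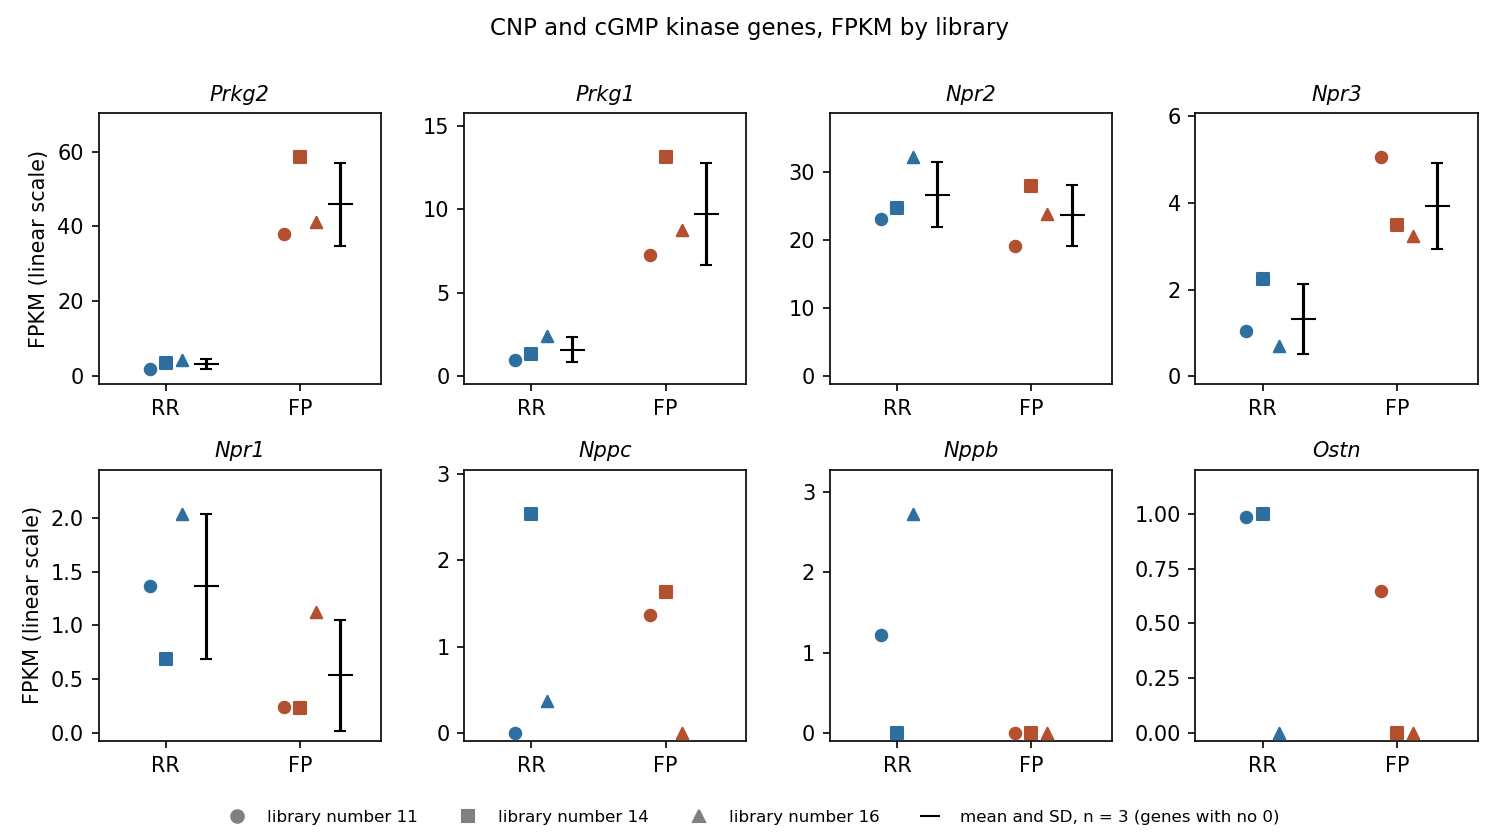
FPKM of the 8 genes in each library (vertical axes, linear, 1 scale per gene), RR in blue and FP in red, with the symbol giving the library number and bars giving mean and SD of 3 libraries for genes that were never listed at 0. The FP points lie above all RR points for Prkg2, Prkg1 and Npr3, while those of Npr2 lie among each other and Nppc, Nppb and Ostn are each listed at 0 in some libraries.

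The libraries were described with marker lists, which were chosen with earlier results of these data known and so are no independent check. The cartilage collagen gene Col2a1 led the 7 chondrocyte markers found, averaging 61640 ± 17930 FPKM for FP and 61230 ± 21650 for RR (SD, n = 3 each). The estimate of each of the 7 was higher in FP (median log2 change 0.94), 4 of them with no overlap between groups. Among all tested genes, 8.74% were higher in FP with no overlap, and 16% had no overlap in either direction. By limma 0 of the 7 were called, and 4 had an unadjusted p under 0.05 (Sox9, Acan, Col11a1 and Matn3). Hypertrophic markers rose in FP (7 of 12 tested: Col10a1, Ihh, Alpl, Panx3, Phospho1, Sp7 and Pth1r), and so did 3 of 8 tested columnar markers (Comp, Epyc and Fgfr3). Of 9 tested resting markers, 6 fell (Pthlh, Sfrp5, Smoc2, Apoe, Grem1 and Spon1). Of the lists for other cells, Sp7 among 9 tested osteoblast markers was the 1 gene called. By limma, 0 were called among 14 muscle, 9 smooth muscle, 9 endothelial, 8 fibroblast, 9 blood and 8 neural markers, led by Tnni2, Cspg4, Egfl7, Col3a1, Hba-a1 and S100b. At an unadjusted p under 0.05 these lists held 6, 2, 0, 2, 0 and 0 genes. The share of all tested genes at that unadjusted threshold was not computed, so the marker counts at it cannot be set against a background. The muscle list stood out by its median log2 change of 1.48, with 13 of 14 genes higher in FP by their estimate, against 0.02 for all tested genes. Taking the values as not rescaled between libraries, depth varied up to 2.33-fold. One fragment on a 2000 bp transcript was worth between 0.128 FPKM (FP 11) and 0.299 FPKM (RR 14).

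Nppc, the CNP gene, lies on chromosome 1 (86666291 to 86670571, mm10, minus strand). It was listed at 1.37, 1.64 and 0 FPKM in FP libraries 11, 14 and 16, and at 0, 2.54 and 0.375 FPKM in RR libraries 11, 14 and 16. Each group holds a library at 0 and the groups overlap. On its single 1042 bp transcript the highest of these values, in RR 14, equals about 4.43 fragments. A listed 0 was taken to allow up to 3 fragments, or 1.08 FPKM in FP 16 and 1.13 FPKM in RR 11. Differences in Nppc of about this size could not be resolved at this depth. These estimates cover counting error only, and a 0 in such files can also be a failed estimate.

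Nppb, the gene of the B-type natriuretic peptide, was listed at 0 in all 3 FP libraries and in RR 14. It was at 1.22 FPKM in RR 11 and 2.73 FPKM in RR 16, about 2.43 and 6.07 fragments on its 781 bp transcript (chromosome 4, 147985788 to 147987205). The zeros of FP 11, 14 and 16 allow up to 0.985, 1.96 and 1.44 FPKM, and that of RR 14 up to 2.29 FPKM. The RR 16 value lies above the FP limits, while RR 14, also at 0, overlaps the FP libraries.

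Ostn, the osteocrin gene, was at 0.649 FPKM in FP 11 and listed at 0 in FP 14 and FP 16. In RR it was at 0.987 and 1.0 FPKM in libraries 11 and 14 and at 0 in library 16. Its 3 nonzero values correspond to 2.39 to 3.60 fragments on a 1423 bp transcript, and the groups overlap (chromosome 16, 27307489 to 27351212). Osteocrin is known from bone and muscle cells. Markers of osteoblasts summed to 362 to 1049 FPKM in FP and 236 to 1690 in RR, and those of skeletal muscle to 479 to 619 and 275 to 821 FPKM, each highest in an RR library. Tnni2 was the largest part of the muscle sum, with 769 of 821 FPKM in RR 16 and 278 of 567 FPKM in FP 11. It was the 1 muscle gene lower in FP by its estimate, and the other 13 were higher, so the order of the sums reflects Tnni2 and not the list. The part of these cells in the Ostn values was not tested.

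Npr2, the CNP receptor gene, lies on chromosome 4 (43631935 to 43651244, plus strand). It was at 19.1, 28.0 and 23.8 FPKM in FP libraries 11, 14 and 16 and at 23.1, 24.7 and 32.2 FPKM in the RR libraries of the same numbers. The 2 groups overlap, with the lowest value in FP 11 and the highest in RR 16. The log2 change was -0.17 ± 0.27 (SE, limma adjusted p = 0.900). Its 95% interval ran from -0.78 to 0.44, or from 0.581-fold to 1.36-fold on the scale of FPKM + 1, so that a change as large as that of either kinase lies outside it. By mean level Npr2 stood above 93.5% of all listed genes in FP and above 95.1% in RR. An antisense gene, Gm12473, overlaps the start of Npr2 and is not among the listed genes. Its part in the Npr2 values was not tested.

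Npr3, the clearance receptor gene, measured 5.05, 3.48 and 3.24 FPKM in FP and 1.04, 2.24 and 0.702 FPKM in RR (libraries 11, 14 and 16). All 3 FP values lie above all 3 RR values, as was so for 8.74% of tested genes in this direction and for 16% in either. The means were 3.92 ± 0.982 and 1.33 ± 0.809 FPKM (SD, n = 3 each), a 2.95-fold difference. The log2 change of 1.12 ± 0.35 did not pass the test (limma adjusted p = 0.273), with a 95% interval of 0.32 to 1.91. At the start of Npr3 (chromosome 15, 11839896 to 11907287, minus strand) the noncoding gene Gm5144 lies on the opposite strand and overlaps it. Gm5144 measured 3.39, 2.53 and 4.93 FPKM in FP and 0.645, 1.96 and 1.74 FPKM in RR, also without overlap between the groups. Whether reads were counted by strand was not given in the sources used here, and its part in the Npr3 values was not tested.

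Npr1, the receptor gene of the heart peptides, was low throughout. It measured 0.239, 0.237 and 1.13 FPKM in FP and 1.36, 0.691 and 2.04 FPKM in RR, with the highest FP value above the lowest RR value. These values equal 1.89 to 23.6 fragments on its 4066 bp transcript (chromosome 3, 90450591 to 90465866). Its mean over the 6 libraries, 0.949 FPKM, fell short of the filter. Without a filter, the log2 difference of -0.63 had a limma adjusted p of 0.740, and those of Nppb (-1.02), Ostn (-0.42) and Nppc (0.12) had 0.601, 0.824 and 0.973.

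Prkg2, the type II kinase gene, lies on chromosome 5 (98929773 to 99037351, minus strand). It was at 37.9, 58.5 and 41.3 FPKM in FP libraries 11, 14 and 16 and at 1.87, 3.68 and 4.27 FPKM in the RR libraries. The lowest FP value is several times the highest RR value. Its log2 change was 3.48 ± 0.32 (SE, limma adjusted p = 0.00310), with a 95% interval of 2.75 to 4.20. It stayed past the threshold whichever of the 6 libraries was left out (limma adjusted p up to 0.0204). Without both libraries numbered 14 or both numbered 16, fits that hold 2 libraries a group, its adjusted p was 0.0588 and 0.0729. In rank, Prkg2 stood above 63.2% of listed genes in RR and above 96.7% in FP. A processed pseudogene on the same strand, Gm3470, lies inside Prkg2 and is not among the listed genes. Its part in the Prkg2 values was not tested.

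Prkg1, the type I kinase gene, which acts in smooth muscle relaxation and is found in many tissues, spans chromosome 19 from 30564489 to 31765033 (minus strand). It measured 7.28, 13.1 and 8.75 FPKM in FP and 0.986, 1.35 and 2.44 FPKM in RR, again with no overlap. The means were 9.71 ± 3.03 and 1.59 ± 0.756 FPKM (SD, n = 3 each). The log2 change was 2.05 ± 0.33 (SE, limma adjusted p = 0.0279), with a 95% interval of 1.31 to 2.79. Prkg1 lost its call whichever of the 6 libraries was left out (limma adjusted p = 0.0505 to 0.124), while the change stayed between 1.83 and 2.27. It was also lost without a filter (0.0560), with genes under a mean of 5 FPKM left out (0.0505) and without an intensity trend in the variance model (0.0525). Cstf2t, a gene on the opposite strand inside Prkg1, measured 6.88, 4.39 and 5.57 FPKM in FP and 8.0, 4.81 and 8.69 FPKM in RR, with overlapping groups.

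Marker lists of cell stage also differed between the groups. Hypertrophic markers summed to 1220 to 1530 FPKM in FP libraries and 180 to 452 FPKM in RR libraries. Columnar markers summed to 5142 to 5920 FPKM in FP and 1701 to 3002 in RR, and resting markers to 526 to 793 and 3183 to 4488 FPKM. Single genes weigh heavily in these sums: in RR 11, Apoe was 2711 of 4057 FPKM and Spp1, whose groups overlap, 220 of 452 FPKM. By estimate, 11 of 12 tested hypertrophic and 8 of 8 tested columnar markers were higher in FP, and 9 of 9 tested resting markers were lower. The part of this difference in cell stage in the kinase values was not tested.

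Prkg1 is also expressed by smooth muscle and pericytes. The 11 markers of these cells summed to 128 to 180 FPKM in FP and 82.5 to 142 FPKM in RR, and most of this was Cspg4, which chondrocytes can express too (112 to 144 FPKM in FP, 53.9 to 105 FPKM in RR). The contractile gene Myh11 measured 1.55, 0.717 and 7.59 FPKM in FP and 2.63, 1.59 and 3.79 FPKM in RR, and Pdgfrb, a pericyte receptor gene, was lower in each FP library (4.65 to 5.63 FPKM) than in each RR library (11.4 to 14.2 FPKM). Pdgfrb was the 1 marker of this list with all RR values above all FP values, and Cspg4 the 1 with the reverse. Of the 9 tested, 3 were higher and 6 lower in FP by their estimate (median log2 change -0.13), and none of the 11 was at 0 in all libraries. The part of these cells in the Prkg1 values was not tested.

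RefSeq (GRCm38.p6) gives Prkg1 a pair of start sites, and the deposited value per gene does not separate transcripts from them. The 250 bases before each start are shown because Prkg1 is the 1 called member with sequences in the table used (no sequence of Prkg2 or Ostn was found there, and 6 of 8 members matched). Beside them stand those of Npr2, the receptor gene whose groups overlapped, and Nppc, its ligand gene near the detection limit. Capitals mark matches, on either strand, to a SOX core (ACAAT or ACAAAG), a RUNX core (TGTGGT), a GLI core (ACCACCC), a CRE core (TGACG) or a TATA box (TATAAA). Lower case means no match. All are written 5′ to 3′ on the gene's strand.
Prkg1, upstream start, chr19:31765034-31765283, minus strand: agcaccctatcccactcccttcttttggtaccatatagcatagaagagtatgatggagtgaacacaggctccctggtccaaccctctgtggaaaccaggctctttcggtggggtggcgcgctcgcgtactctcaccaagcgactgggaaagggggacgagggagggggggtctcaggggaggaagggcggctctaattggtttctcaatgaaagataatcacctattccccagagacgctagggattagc
Prkg1, downstream start, chr19:31664371-31664620, minus strand: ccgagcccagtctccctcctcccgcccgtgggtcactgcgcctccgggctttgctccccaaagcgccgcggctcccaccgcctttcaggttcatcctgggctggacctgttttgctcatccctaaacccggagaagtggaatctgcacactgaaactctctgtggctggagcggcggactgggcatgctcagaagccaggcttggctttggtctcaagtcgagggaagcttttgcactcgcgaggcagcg
Npr2, chr4:43631685-43631934, plus strand: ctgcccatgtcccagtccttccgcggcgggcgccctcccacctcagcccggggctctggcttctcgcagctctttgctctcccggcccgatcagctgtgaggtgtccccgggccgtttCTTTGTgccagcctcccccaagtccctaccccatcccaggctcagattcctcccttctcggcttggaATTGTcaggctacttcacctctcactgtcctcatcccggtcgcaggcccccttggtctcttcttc
Nppc, chr1:86670574-86670823, minus strand: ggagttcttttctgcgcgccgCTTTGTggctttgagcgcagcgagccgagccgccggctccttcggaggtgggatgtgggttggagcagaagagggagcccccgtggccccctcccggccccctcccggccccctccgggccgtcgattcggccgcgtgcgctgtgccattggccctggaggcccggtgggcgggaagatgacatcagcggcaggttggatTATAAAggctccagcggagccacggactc

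Neither Prkg1 sequence held any of the 5 motifs. The Npr2 sequence held 2 SOX cores, and that of Nppc held 1 SOX core and 1 TATA box. Of 32851 mouse promoter sequences of the same length, 38.8% held a SOX core, 14% a RUNX core, 3.92% a GLI core, 17.8% a CRE core and 12.4% a TATA box. Among the sequences not printed, Npr3 held 1 CRE core, Npr1 held 1 RUNX core, and Nppb held 1 SOX core and 1 TATA box. GC content was 55.2% and 62.8% before the upstream and downstream Prkg1 starts, 64.4% before Npr2 and 69.2% before Nppc.

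Levels per length can be compared between genes within a library. In FP the order by mean FPKM was Prkg2, Npr2, Prkg1, Npr3, Nppc, Npr1, Ostn and Nppb, and the ranges of neighbours from Prkg2 down to Nppc did not overlap. In RR, Npr2 came first at 26.7 FPKM and Prkg2 followed at 3.28 FPKM, with ranges apart. Below these the RR ranges of all neighbours overlapped, although Prkg2 was above Prkg1 in 3 of 3 RR libraries. Npr2 thus exceeded Prkg2 in all RR libraries, and Prkg2 exceeded Npr2 in all FP libraries.

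The balance within each pair of genes was compared as a ratio of FPKM per library. Prkg2 stood at 5.21, 4.46 and 4.72 times Prkg1 in FP libraries 11, 14 and 16 and at 1.90, 2.72 and 1.75 times in RR. The ratio was higher in every FP library than in any RR library. On the log2(FPKM + 1) scale it was 2.14 ± 0.081 in FP and 0.71 ± 0.25 in RR, a difference of 1.43 (exact permutation test, two-sided, p = 0.10, n = 3 each, which is the smallest p this design allows). Npr2 stood at 3.78, 8.03 and 7.33 times Npr3 in FP and at 22.2, 11 and 45.8 times in RR, lower in every FP library. On the log2(FPKM + 1) scale the Npr2 to Npr3 ratio was 2.32 ± 0.52 in FP and 3.61 ± 0.65 in RR. This is a difference of -1.29 (exact permutation test, two-sided, p = 0.10, n = 3 each). With a pseudocount of 0.1 in place of 1, the differences were 1.24 for the kinases and -1.79 for the receptors. Adjusted over these 2 ratios, both p-values remain 0.10, so neither difference can pass a threshold of 0.05 here.

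**Figure D2:**
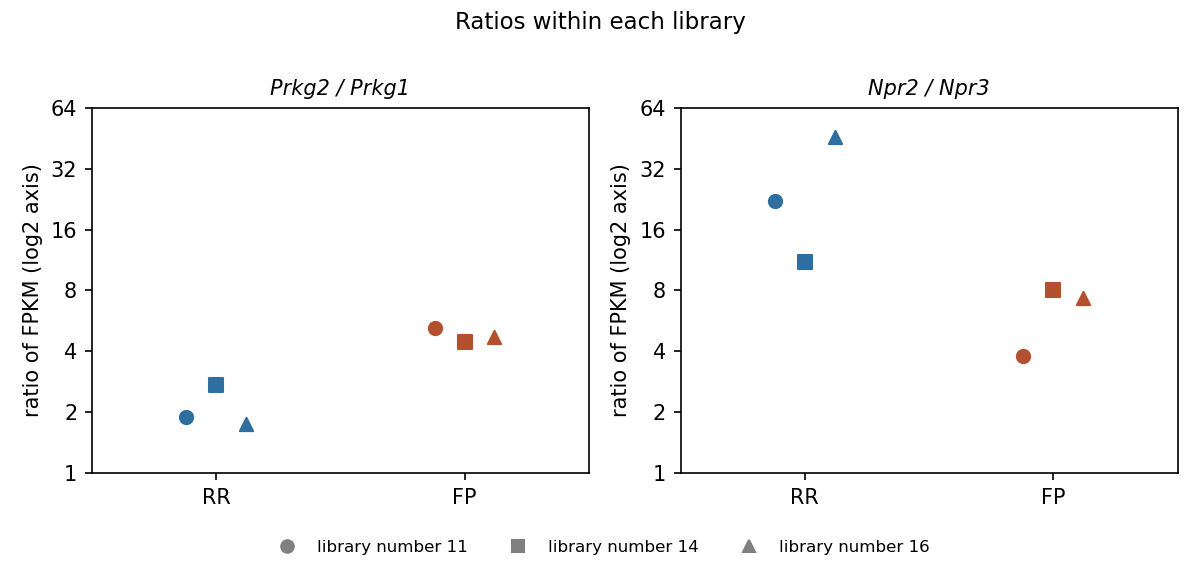
Ratio of FPKM within each library (vertical axes on a log2 scale) of Prkg2 to Prkg1 on the left and of Npr2 to Npr3 on the right, RR in blue and FP in red, with the symbol giving the library number. The kinase ratio lies between 4.46 and 5.21 in FP and between 1.75 and 2.72 in RR, and the receptor ratio between 3.78 and 8.03 in FP and between 11 and 45.8 in RR.

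The rest of the pathway was described from 6 further lists, which hold 93 genes in the files beside the members. Of these, 62 passed the filter, 1 rose (Fgfr3) and 0 fell, or 1.61% called against 0.967% of all tested genes. Their median log2 change was 0.01, against 0.02 for all tested genes. At an unadjusted limma p under 0.05, the lists held 1 (peptide processing), 0 (cyclases), 0 (phosphodiesterases), 0 (export and channels), 3 (kinase partners) and 2 genes (FGFR3 to MAP kinase). The share of all tested genes at this unadjusted threshold was not computed, so these counts cannot be set against it. With the library number as a replicate block 3 were called, among them Mrvi1, lower in FP (limma adjusted p = 0.0373).

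Of 6 tested genes of peptide processing and breakdown, 0 were called (median 0.05). Furin, the protease that cleaves the CNP precursor, measured 55.9, 88.4 and 103 FPKM in FP and 35.6, 44.3 and 83.1 FPKM in RR, with overlap (log2 change 0.64, limma adjusted p = 0.667). Pcsk6, a related convertase, measured 17.3, 21.6 and 15.9 FPKM in FP and 7.46, 8.78 and 9.53 FPKM in RR without overlap, but was not called (log2 change 1.0, limma adjusted p = 0.159). Genes for other routes to cGMP were low. Of 16 listed genes for other guanylyl cyclases, nitric oxide synthases and cyclase activators, 4 passed the filter and 0 were called (median -0.16). Guca1b, a cyclase activator, had a mean of 1.62 FPKM over the 6 libraries and Gucy1a3, a subunit of the nitric oxide receptor, 1.15 FPKM.

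The phosphodiesterase list holds genes named for this family, and many but not all of their products break cGMP down or respond to it. Of 10 tested, 0 were called and 7 were lower in FP by their estimate (median -0.05). Pde3a, whose enzyme is inhibited by cGMP, measured 23.9, 24.7 and 27.9 FPKM in FP and 28.9, 32.3 and 44.6 FPKM in RR, lower in every FP library (log2 change -0.43, limma adjusted p = 0.671). Pde6d was at 6.47 to 20.1 FPKM in FP and 12 to 14.1 in RR. Pde5a, the cGMP-specific enzyme, was at 0.848 to 3.51 FPKM in FP and 0.917 to 2.04 in RR. Among 5 tested genes for cGMP export pumps and for channels that cyclic nucleotides open or modulate, 0 were called (median -0.12). The pump genes Abcc5 and Abcc4 had log2 changes of -0.12 and 0.07.

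Of 20 tested substrates and partners of the kinases, 0 were called, with 12 higher and 8 lower by their estimate (median 0.15). Sox9, the chondrogenic factor whose location in the cell is regulated by the type II kinase, measured 270, 360 and 332 FPKM in FP and 122, 129 and 207 FPKM in RR, with no overlap (log2 change 1.10, limma adjusted p = 0.216). Vasp, a classical substrate, was at 23.2 to 55.1 FPKM in FP and 17.4 to 41.2 in RR. Of 19 tested genes of the FGFR3 to MAP kinase chain, 1 rose and 0 fell (median 0.14). Fgfr3 measured 162, 170 and 179 FPKM in FP and 43.8, 41.3 and 70.9 FPKM in RR (log2 change 1.73 ± 0.29, limma adjusted p = 0.0341). Fgfr3 and Sox9 also stand in the marker lists of columnar cells and chondrocytes. Fgfr3 lost its call when any library other than RR 16 was left out, that is in 5 of 6 fits (limma adjusted p up to 0.194), and in the variance model with no intensity trend (0.0612). Araf, a RAF kinase gene, was at 29.0 to 33.0 FPKM in FP and 21.4 to 32.2 in RR.

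**Figure D3:**
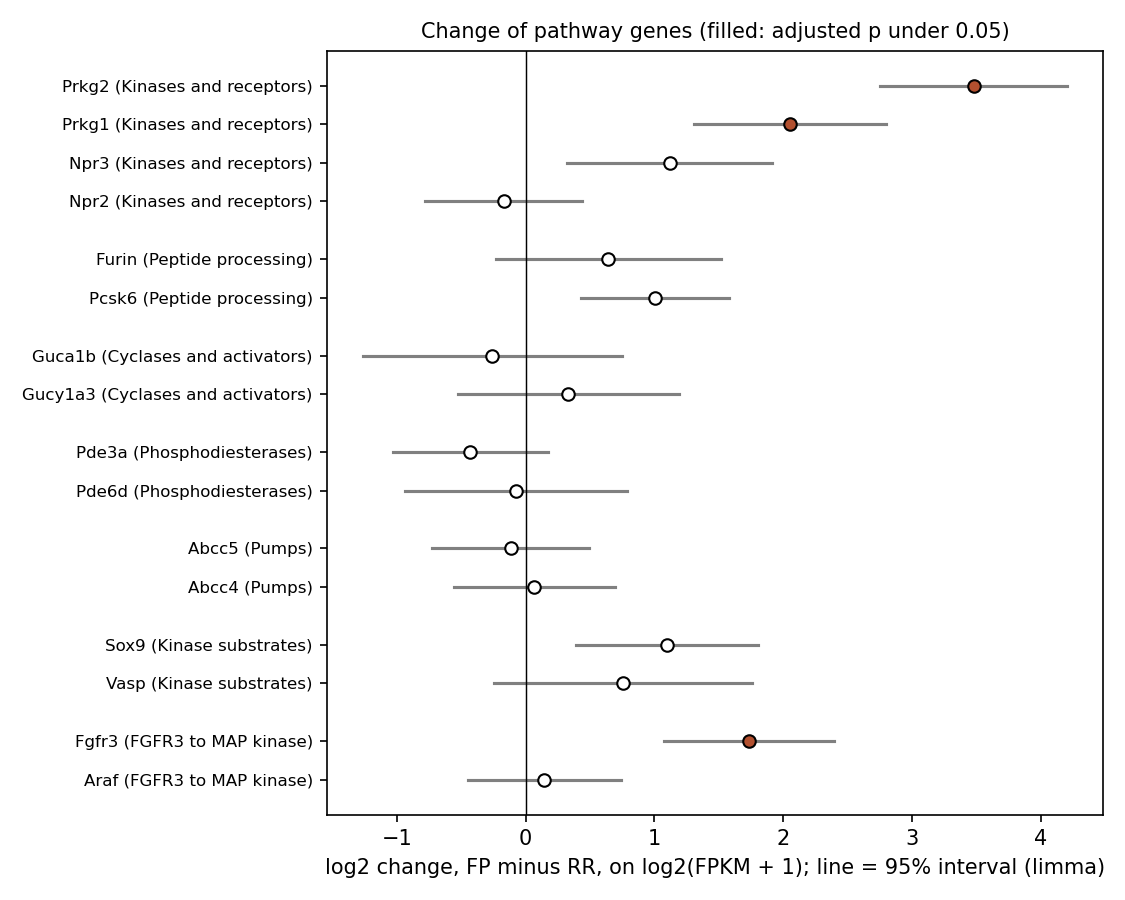
Log2 change, FP minus RR, on the log2(FPKM + 1) scale (horizontal axis) of the 4 tested members and of the most abundant genes of each pathway list, with lines for limma's 95% interval and filled points for genes called. The filled points are Prkg2 at 3.48, Prkg1 at 2.05 and Fgfr3 at 1.73, while the interval of Npr2 includes 0. Intervals are per gene and not adjusted, while calls use the adjusted p. The intervals of Npr3, Pcsk6 and Sox9 thus exclude 0 without a call.

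The genes whose values ran most like those of the kinases were found by Pearson's r of log2(FPKM + 1) over the 6 libraries, among tested genes that averaged 5 FPKM or more. With so few points, r mostly reflects the difference between the groups, and it is given as a description. For Prkg2 the closest were Itga10, an integrin that binds collagen (r = 0.998), Scube1 (0.998), the collagen VI gene Col6a3 (0.998), and the lysyl oxidase genes Loxl3 (0.997) and Loxl4 (0.997). For Prkg1 the closest included Pth1r, which codes for the PTHrP receptor (r = 0.996), Pde4dip, whose product binds a phosphodiesterase (0.994), Smad1, a BMP signal carrier (0.991), and Fam129b (0.991). The kinases correlated with each other at r = 0.987, which placed Prkg2 at rank 10 among 6549 genes compared with Prkg1. Scube1 measured 25.2, 34.8 and 31.0 FPKM in FP and 1.15, 2.02 and 2.88 FPKM in RR. Pth1r measured 328, 463 and 394 FPKM in FP and 95, 103 and 138 FPKM in RR, so that FP 14 was the highest FP library and RR 16 the highest RR library for it as for Prkg1.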

How the data were processed

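The authors deposited 1 FPKM value per gene and library, as the file headers say. The submitters' processing notes name Cuffdiff 2.2.1, TopHat2 2.1.1, SAMtools 0.1.18 and Bowtie2 2.2.8, and the build mm10. Which annotation, normalization and strand setting they used was not given in the sources used here.

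Values were tested with limma 3.58.1 in R 4.3.3 as log2(FPKM + 1), FP minus RR, with an intensity trend, over the 14789 genes averaging 1 FPKM or more, and p-values were adjusted over all of them. This scale understates changes of low genes, and folds are ratios of mean FPKM. The fit was tested on simulated data. Depth was read from the steps in FPKM times length of 3524 genes with 1 transcript of 1500 to 3000 bp (GENCODE M21): 69.7% to 73.1% of values up to 4.5 fragments were whole within 0.1 fragments, against 20% if spread evenly.

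The members and lists were chosen with earlier results of these data known. Named are all members, genes called and the 2 most abundant tested genes of each pathway list, the most abundant and the called genes of each marker list, and the 5 genes closest to each called member, without Gm, Rik and small RNA names. A few genes that this rule or the lists name are not reported here. Gm5144, Cstf2t, Myh11, Pdgfrb, Acan, Col11a1, Matn3, Pde5a and Mrvi1 were added after their values were seen. Gm3470 and Gm12473, which have no values here, were named for their overlap with members. Other genes without values that overlap Prkg1, Npr1 and Ostn are not named. Alternatives were another pseudocount, filter, scaling and variance model, library weights, the library number as a block, and leaving out libraries.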

Additional observations from a re-analysis of the deposited data

How the results depend on the processing

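The directions of Prkg2, Prkg1, Npr3, Npr2 and of both ratios held in every alternative in which each could be fitted; Npr3 could not be fitted when genes under a mean of 5 FPKM were left out, and the ratios and the 4 members under the filter were recomputed only under another pseudocount, scaling and choice of libraries, and those members also without a filter. Prkg2 was past the threshold in all but 2 alternatives: its log2 change was 3.38 without both libraries numbered 14 and 3.71 without both numbered 16 (limma adjusted p = 0.0588 and 0.0729). The Prkg1 call ended without a filter, with a filter at 5 FPKM and without an intensity trend (log2 change 2.05 in each), without both libraries numbered 11, 14 or 16 (2.04, 1.78 and 2.32, limma adjusted p = 0.125, 0.337 and 0.248), and without any 1 library (1.83 to 2.27). Members called were thus 1 in place of 2 in those fits and in each fit without 1 library (1 to 1), and 0 without both libraries numbered 14 or 16, fits that called 8 and 20 genes in all. The cause was not tested, but fits without libraries hold fewer samples.

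All genes called numbered 143, against 83 without an intensity trend, 42 to 85 without 1 library (42 without FP 16), 42 without both libraries numbered 11, and 271 with the replicate block. Of the calls, 57.3% were higher in FP, against 50.4% after quantile normalization, 75.7% without RR 16, and 75% and 80% without both libraries numbered 14 or 16. Other pathway genes called numbered 1, against 0 without an intensity trend, 0 to 1 without 1 library, 0 without both libraries of any number, and 3 with the replicate block. Same-numbered libraries correlated in their deviations from the group means at 0.319 (11), 0.185 (14) and 0.089 (16), each library best with its own number. The titles share these numbers too, but the labels used here do not say what a number stands for. The main fit and the permutation tests did not use this pairing. The replicate block left Prkg1 and Prkg2 called (limma adjusted p = 0.0242 and 0.00338). With a pseudocount of 0.1 the log2 differences of Npr1, Nppb and Ostn grew from -0.63, -1.02 and -0.42 to -1.38, -2.85 and -1.33, and that of Nppc changed sign with the library left out (-0.26 to 0.65).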

Other observations

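Mrvi1, which codes for a partner of the type I kinase at calcium stores, had groups that did not overlap without being called. In libraries 11, 14 and 16 it measured 0.440, 1.51 and 1.22 FPKM for FP against 3.56, 6.66 and 5.68 FPKM for RR, opposite in direction to Prkg1 (log2 change -1.62 ± 0.35, limma adjusted p = 0.0919). It was chosen from the 62 other pathway genes tested after its values were seen.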
